A study of Mus musculus with 6 samples.

Results

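Proteasome subunit genes were chosen by name: protein-coding genes whose symbol begins with Psm, a letter from a to f and a number. The pattern took 46 of 21139 genes listed in the deposited table, and 44 of them passed the filter on low counts, as did 13507 genes in all. Of the 46, 45 code for subunits, regulators or assembly factors of the proteasome. The remaining gene, Psmc3ip, codes for a partner of meiotic recombination proteins that was named for binding Psmc3, and it is kept apart below. RNA was measured in 6 libraries of CD4+ T cells from the spleen of C57BL/6J mice. All cells were activated for 2 days with anti-CD3 and anti-CD28, antibodies that engage the T cell receptor complex and the co-stimulatory receptor CD28. The 3 medium libraries had medium alone, and the 3 CpdA libraries had CpdA, which the series calls an agonist of Gpr120, at a dose that the labels write as 20 µm. Neither the age or sex of the mice nor the vehicle is given in the sources used here. Whether the 3 libraries of a group stem from different mice or cultures is not stated, and the p-values therefore reflect the spread between these samples alone, which may be technical.

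The proteasome is the main protease of the cytosol and nucleus and degrades proteins tagged with ubiquitin. Its 20S core is a stack of rings made of alpha subunits, which form the gate, and beta subunits, some of which cut peptides. The 19S cap recognises, deubiquitinates and unfolds substrates with a ring of ATPases, a base and a lid. In lymphocytes and under interferon, the immunoproteasome subunits Psmb8, Psmb9 and Psmb10 take the places of the catalytic subunits Psmb5, Psmb6 and Psmb7, which shifts the peptides made for MHC class I.

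With CpdA, transcripts of the proteasome were higher by small amounts and across nearly all of its structure. Of the 44 tested genes, 33 were higher and 0 were lower at an adjusted p under 0.05 (edgeR's quasi-likelihood test with Benjamini-Hochberg adjustment), while 16.5% of all tested genes were called higher and 16.7% lower. At an unadjusted p under 0.05, 34 were higher and 0 lower, and DESeq2 and limma-voom also gave 34 and 0. The called increases ran from 5.83% (Psmd2) to 26.3% (Psmc3ip), with a median of 11.6%. The median log2 fold change of CpdA over medium, hereafter the log2 change, was 0.15 over the 44 genes and 0.00 over all genes tested. CpdA values lay above all medium values for 36 of the 44 genes, and for 22.9% of all tested genes. They lay below all medium values for 1 gene, Psme4, and for 21% of all tested genes. Well-measured genes are called more readily: among genes with a mean of at least 50 CPM (counts scaled to a common library total), 32 of 39 members were higher, against 27.9% of all 4248 genes at that level.

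Library totals ran from 20247761 to 25952169 counts. Cd4 and the general T cell markers Cd3d, Cd3e, Cd3g and Cd28 were high in all libraries. Of these, 5 of 5 were lower with CpdA, beside 16.7% of all tested genes and 24.5% of those with a mean of at least 50 CPM. The 5 markers summed to 1272 to 1299.7 CPM in medium and 1136 to 1149.8 CPM with CpdA. B cell markers summed to 22.2 to 27.5 CPM in medium and 24.2 to 28.2 CPM with CpdA, with Ms4a1 higher and the other 3 not called. Macrophage and dendritic cell markers summed to 2.71 to 3.76 and 3.62 to 3.83 CPM, CD8 T cell markers to 7.99 to 8.84 and 7.33 to 9.40 CPM, and NK cell markers to at most 0.20 CPM. Neutrophil and erythroid markers summed to at most 6.52 and 0.85 CPM. Adgre1, S100a8 and S100a9 were not analysed here. The part of these markers in the results was not tested. In bulk RNA, a change in the share of cells of one kind and a change in RNA per cell cannot be told apart.

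**Figure D1:**
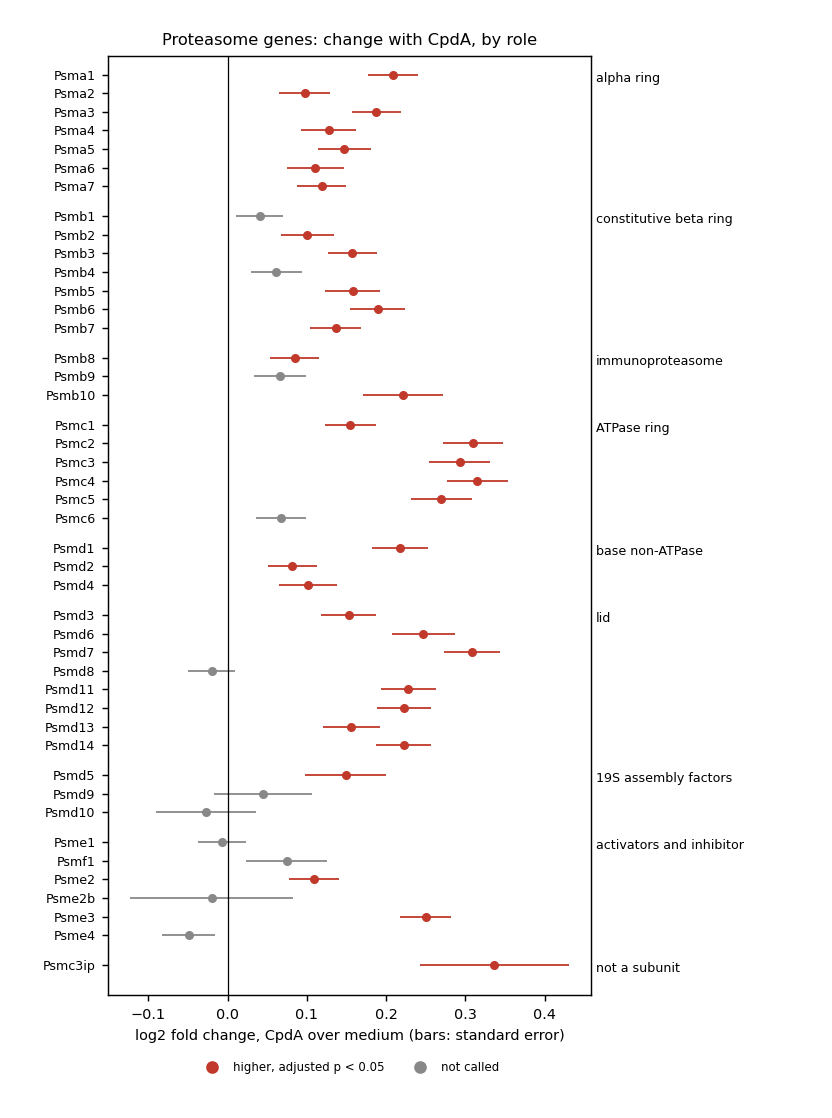
Log2 fold change of CpdA over medium (horizontal axis) for each of the 44 tested genes, grouped by role; points are edgeR estimates, bars are standard errors, and red marks an adjusted p under 0.05. Red points fill the alpha ring, the ATPase ring and the lid, apart from Psmc6 and Psmd8, and no gene is called lower.

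Levels were also summed by role, where the most abundant genes weigh most. They are given as FPKM (fragments per kilobase of gene length, scaled to the library total). Comparisons between genes thus depend on the deposited gene lengths. The 6 ATPase genes summed to 464, 479 and 468 FPKM in medium and to 561, 539 and 541 FPKM with CpdA, 16.3% more in the mean. The 8 lid genes summed to 596, 615 and 601 FPKM in medium and to 685, 670.3 and 685 FPKM with CpdA, 12.6% more. For both groups every CpdA library lay above every medium library. The summed FPKM was 10.6% higher for the alpha ring, 9.08% for the base, 8.72% for the constitutive beta ring, 8.59% for the immunoproteasome genes and 7.19% for the activators and inhibitor. The assembly factors of the 19S cap had a difference of 4.0%. The sums are descriptions, and the differences between roles were not tested. Of these 8 role groups, the assembly factors alone had overlapping medium and CpdA libraries. Together the 45 genes took 0.640% ± 0.009 of counts in medium and 0.708% ± 0.008 with CpdA (SD, n = 3).

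**Figure D2:**
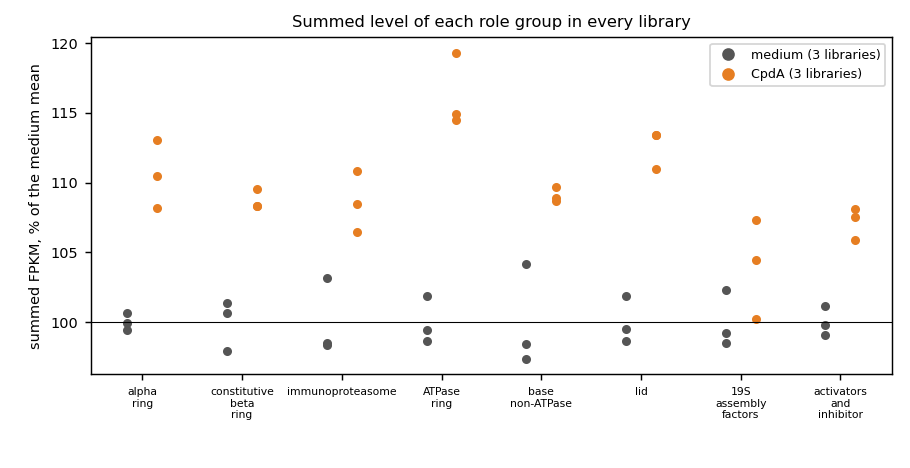
Summed FPKM of each role group in every library, as a percentage of the medium mean (vertical axis); grey points are the 3 medium libraries and orange points the 3 CpdA libraries. Orange points lie above grey points in every group but the assembly factors, and highest in the ATPase ring, where the mean is 16.3% above medium.

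The alpha ring, whose N-terminal tails close the entry to the core, was higher in all of its 7 constitutive genes, with a median log2 change of 0.13. Psma1 (chromosome 7, 114264606 to 114276118, GRCm38) had 131, 129.7 and 132 FPKM in medium and 154, 151 and 151 FPKM with CpdA. This is a log2 change of 0.21 ± 0.03 (SE, adjusted p = 1.4e-06), and the groups were far apart beside the spread within each. Psma3 had 82.7, 81.6 and 82.1 FPKM in medium and 94.9, 96.8 and 90.8 FPKM with CpdA, a log2 change of 0.19 (adjusted p = 5.7e-06). Psma5 rose from 107 ± 1.1 to 119 ± 1.8 FPKM (SD, n = 3), a log2 change of 0.15 (adjusted p = 0.00055). Psma4 and Psma7 rose by 0.13 and 0.12 on the log2 scale. Psma2 and Psma6 had the smallest changes, 0.10 and 0.11, and were the calls in this ring that single libraries decided. Psma2 missed the threshold without medium replicate 2 (adjusted p = 0.0818), without medium replicate 3 (0.0542) and without CpdA replicate 1 (0.0781). Psma6 missed it without medium replicate 3 (adjusted p = 0.0538), without CpdA replicate 1 (0.107) and without CpdA replicate 2 (0.0526). In the cell the ring holds each alpha subunit in equal number, whereas the transcripts spanned 2.77-fold, from Psma3 at a mean of 88.2 FPKM over the 6 libraries to Psma2 at 244 FPKM. Such levels depend on the deposited gene length, which is longest for Psma3 in this ring (2846 bases).

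**Figure D3:**
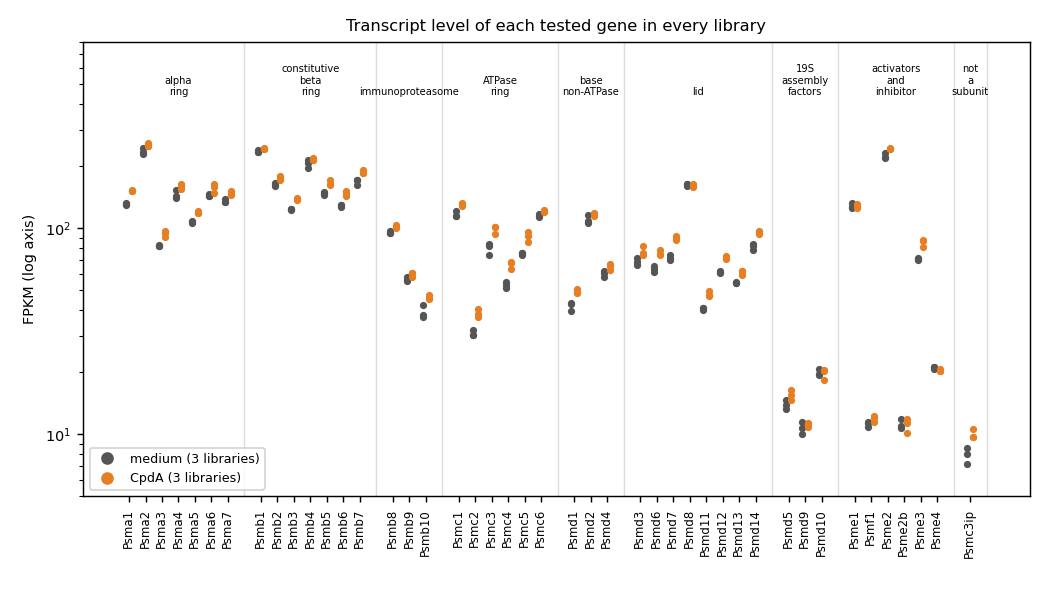
FPKM of each of the 44 tested genes in every library (vertical log axis), by role; grey points are medium and orange points CpdA. Within a role, genes differ far more in FPKM than the treatment moves any of them: the ATPase genes span 3.56-fold, and the largest called change of a subunit is 24.4%. Such spans depend on the deposited gene lengths, 3466 bases for Psmc2, the lowest ATPase gene, and 1518 for Psmc1, the highest.

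The constitutive beta ring was higher in 5 of 7 genes, including the 3 that carry the catalytic sites. Psmb5 (chromosome 14, 54614120 to 54617995), the chymotrypsin-like subunit, had 144, 149.8 and 148 FPKM in medium and 171, 163 and 162 FPKM with CpdA. Its log2 change was 0.16 ± 0.03 (SE, adjusted p = 0.00037), with every CpdA library above every medium library. Psmb6, the caspase-like subunit, had 126, 129.7 and 129.9 FPKM in medium and 151, 149 and 143 FPKM with CpdA. Its change was the largest of this ring, 0.19 ± 0.03 (SE, adjusted p = 3.2e-05). Psmb7, the trypsin-like subunit, had 162, 171 and 172 FPKM in medium and 191, 185 and 184 FPKM with CpdA, a log2 change of 0.14 (adjusted p = 0.00082). The non-catalytic Psmb3 rose by 0.16 (adjusted p = 8.6e-05), with 124, 122 and 123 FPKM in medium and 139.7, 137 and 138 FPKM with CpdA. Psmb2 rose by 0.10 (adjusted p = 0.0174), which missed the threshold without medium replicate 1 (adjusted p = 0.0513), medium replicate 2 (0.0509) or CpdA replicate 3 (0.0925). Psmb1 and Psmb4, the most abundant beta transcripts, had log2 changes of 0.04 (adjusted p = 0.321) and 0.06 (0.141). Their groups did not overlap, although neither passed; Psmb4 passed without medium replicate 2, at a log2 change of 0.09 (adjusted p = 0.0319).

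Of the 3 immunoproteasome genes, Psmb10 and Psmb8 were higher and Psmb9 was not called. Psmb10 (chromosome 8, 105935728 to 105938392) had 38.0, 42.3 and 37.1 FPKM in medium and 47.3, 45.1 and 45.6 FPKM with CpdA. The log2 change was 0.22 ± 0.05 (SE, adjusted p = 0.00053), with no overlap although medium replicate 2 stood above the other medium libraries. Psmb8 (chromosome 17, 34197721 to 34201454) had 94.5, 96.6 and 94.9 FPKM in medium and 104, 100.3 and 101 FPKM with CpdA. Its log2 change of 0.08 ± 0.03 (SE, adjusted p = 0.0339) was close to the threshold and missed it without medium replicate 1 (adjusted p = 0.0954), medium replicate 3 (0.102), CpdA replicate 1 (0.113) or CpdA replicate 3 (0.0639). Psmb10 was then the only immunoproteasome gene called. Psmb9 (chromosome 17, 34181988 to 34187764) had 55.5, 58.2 and 56.2 FPKM in medium and 60.7, 58.0 and 60.4 FPKM with CpdA, and these ranges overlap. Its log2 change was 0.07 ± 0.03 (SE, adjusted p = 0.124). Psmb8 and Psmb9 lie close together in the MHC class II region, on either side of Tap1, while Psmb10 lies on another chromosome. In GENCODE M21, exons of Psmb9 share 212 bases with exons of Tap1 on the opposite strand, and exons of Psmb8 share 498 bases with the antisense gene Gm20496. No source used here gives the strand setting of the counting, and reads from those bases may be shared.

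The balance between immunoproteasome and constitutive catalytic subunits was read as a ratio of FPKM within each library, which does not depend on how libraries are scaled. Psmb8 over Psmb5 was 0.657, 0.645 and 0.643 in medium and 0.608, 0.614 and 0.625 with CpdA. Psmb9 over Psmb6 was 0.440, 0.449 and 0.432 in medium and 0.402, 0.390 and 0.421 with CpdA. Both ratios were lower in every CpdA library than in any medium library, by 0.07 and 0.12 on the log2 scale (exact two-sided permutation p = 0.1 for each, the smallest that 3 against 3 can give, or 0.15 adjusted over the 3 pairs). Psmb10 over Psmb7 was 0.234, 0.247 and 0.216 in medium and 0.248, 0.244 and 0.248 with CpdA. Here the groups overlapped, with a log2 difference of 0.09 in the other direction (exact two-sided permutation p = 0.2, adjusted 0.2). This value moved to 0.04 without medium replicate 3. By FPKM the constitutive transcripts were the more abundant of each pair in both groups, but this ranking depends on the deposited gene lengths. Psmb8 and Psmb9 are listed with 1907 and 2884 bases, and Psmb5 and Psmb6 with 871 and 966. In counts summed over medium, Psmb8 (12143) exceeded Psmb5 (8565), and Psmb9 (10911) exceeded Psmb6 (8298). Psmb10 (3325) stayed below Psmb7 (13071).

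**Figure D4:**
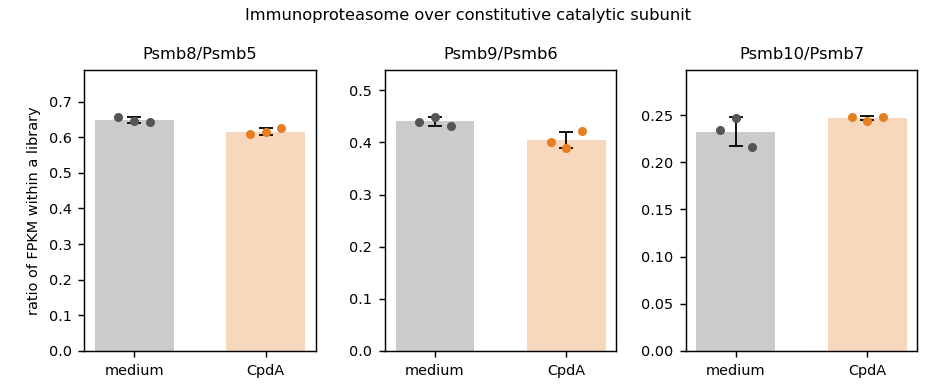
Ratio of FPKM of each immunoproteasome gene to its constitutive counterpart, by group (vertical axis from 0); points are libraries, bars are means and error bars are SD (n = 3). The Psmb8 and Psmb9 ratios are lower with CpdA, and the Psmb10 ratios overlap.

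The ATPase ring, which unfolds substrates and threads them into the core, was higher in 5 of 6 genes, with a median log2 change of 0.28. Psmc4 (chromosome 7, 28041707 to 28050101) had 52.9, 54.7 and 51.4 FPKM in medium and 68.8, 63.0 and 67.5 FPKM with CpdA, a log2 change of 0.32 ± 0.04 (SE, adjusted p = 1.5e-08). Psmc2 (chromosome 5, 21785283 to 21803787) had 30.2, 32.1 and 30.4 FPKM in medium and 40.4, 37.1 and 38.2 FPKM with CpdA, a change of 0.31 ± 0.04 (SE, adjusted p = 1.6e-08). In both genes the lowest CpdA library was well above the highest medium library, and the increase was about 24% (24.4% and 23.9%). Psmc3 had 74.3, 84.0 and 81.5 FPKM in medium and 101, 101 and 94.1 FPKM with CpdA, a log2 change of 0.29 (adjusted p = 2.1e-07). Psmc5 and Psmc1 rose by 0.27 and 0.15. Psmc6 differed from them, with 117, 114 and 114 FPKM in medium and 122, 121 and 120.2 FPKM with CpdA. The groups of Psmc6 did not overlap, but its log2 change of 0.07 was not called (adjusted p = 0.0944). The 5 calls of this ring held under every setting tried.

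All 3 tested base subunits without ATPase activity were higher, though for Psmd2 and Psmd4 the call was fragile. Psmd1, a scaffold that docks ubiquitin receptors, had 39.7, 43.5 and 42.8 FPKM in medium and 48.8, 48.4 and 50.5 FPKM with CpdA, a log2 change of 0.22 ± 0.04 (SE, adjusted p = 5.1e-06). Psmd4, a ubiquitin receptor, had 58.2, 62.1 and 60.4 FPKM in medium and 65.4, 67.3 and 62.5 FPKM with CpdA, a change of 0.10 (adjusted p = 0.0285). CpdA replicate 3 lay only just above medium replicate 2. Psmd2, the other scaffold, had 108, 115 and 105 FPKM in medium and 118, 115 and 118 FPKM with CpdA, overlapping groups with a change of 0.08 (adjusted p = 0.0364). Both missed the threshold without medium replicate 1 (adjusted p = 0.151 for Psmd4 and 0.115 for Psmd2), without medium replicate 3 (0.0671 and 0.267) and without CpdA replicate 1 (0.0608 and 0.0955). Psmd4 also missed it without CpdA replicate 2 (adjusted p = 0.15) and Psmd2 without CpdA replicate 3 (0.101). DESeq2 did not call Psmd4 (adjusted p = 0.0573), and the stricter count filter did not call Psmd2 (0.0575).

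The lid was higher in 7 of 8 genes, with a median log2 change of 0.22, and these calls held under every setting tried. Psmd7 (chromosome 8, 107580381 to 107588482), the partner of the deubiquitinase of the lid, had 70.4, 73.6 and 71.8 FPKM in medium and 89.8, 87.6 and 91.9 FPKM with CpdA. Its log2 change was 0.31 ± 0.03 (SE, adjusted p = 3.0e-09), the smallest p of all members. Psmd14, the deubiquitinase itself, had 78.6, 83.6 and 81.4 FPKM in medium and 97.03, 93.8 and 95.7 FPKM with CpdA, a change of 0.22 ± 0.03 (SE, adjusted p = 2.1e-06). The scaffold genes Psmd11 and Psmd12 rose by 0.23 (adjusted p = 1.5e-06) and 0.22 (1.6e-06), each with groups that lay far apart: 39.9 to 41.1 against 46.8 to 49.7 FPKM for Psmd11, and 60.6 to 61.6 against 71.04 to 72.8 FPKM for Psmd12. Psmd6 rose by 0.25, Psmd13 by 0.16 and Psmd3 by 0.15. Psmd8, the most abundant lid transcript, did not follow. It had 163, 164 and 159.7 FPKM in medium and 158, 162 and 163 FPKM with CpdA, overlapping ranges with a log2 change of -0.02 ± 0.03 (SE, adjusted p = 0.658).

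The 3 genes for chaperones that bind ATPases during assembly of the 19S cap were low in both groups, and 1 was called. Psmd5 had 14.6, 13.9 and 13.3 FPKM in medium and 14.7, 15.5 and 16.3 FPKM with CpdA, a log2 change of 0.15 (adjusted p = 0.0212). CpdA replicate 1 was barely above medium replicate 1, and the call was lost without medium replicate 3 (adjusted p = 0.143), without CpdA replicate 3 (0.154) and with DESeq2 (0.0619). Psmd9 and Psmd10 (gankyrin) had overlapping groups and log2 changes of 0.04 (adjusted p = 0.634) and -0.03 (0.785). In the annotation 25.5% of the exon bases of Psmd9 are shared with the opposite-strand gene Gm26745.

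Among the genes of activators, which open the core without ATP, Psme3 and Psme2 were higher and the others were not called. Psme3 (chromosome 11, 101316213 to 101323537), the nuclear PA28 gamma, had 70.9, 69.8 and 71.8 FPKM in medium and 87.0, 81.0 and 86.5 FPKM with CpdA. Its log2 change was 0.25 ± 0.03 (SE, adjusted p = 5.3e-08), a rise of 18.9%, with no overlap. Psme1 and Psme2 code for PA28 alpha and beta, which form the activator that interferon gamma induces and which lie close together on chromosome 14. Psme2 had 220.4, 219 and 231 FPKM in medium and 245, 242 and 241 FPKM with CpdA, a change of 0.11 (adjusted p = 0.0055). Psme1 had 126, 132 and 125 FPKM in medium and 129, 125 and 131 FPKM with CpdA, overlapping ranges with a log2 change of -0.01 ± 0.03 (SE, adjusted p = 0.892). Psme2b, a copy of Psme2 with 1 annotated exon, had 11.2 FPKM in medium and 11.1 FPKM with CpdA (adjusted p = 0.907). Its transcript was 99.4% identical to that of Psme2 over 794 aligned bases, so its reads and those of Psme2 are uncertain. Psme4, the nuclear activator PA200, had 21.3, 21.1 and 20.7 FPKM in medium and 20.3, 20.6 and 20.4 FPKM with CpdA. Every CpdA value was below every medium value, yet the log2 change of -0.05 was not called (adjusted p = 0.283). Psmf1, an inhibitor of the core, had a change of 0.07 (adjusted p = 0.282).

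The core subunits known from the testis and the thymus were near the limit of detection and were not tested. Psma8, the alpha subunit of the spermatoproteasome, had 1, 1 and 2 counts in medium and 3, 9 and 5 counts with CpdA. Psmb11, of the thymoproteasome, had 0 counts in each medium library, where a count of 0 allows up to 3 for counting error only. It had 5 counts with CpdA, all in CpdA replicate 3. A difference in Psmb11 was not detectable at this depth. Psmc3ip, which is not a subunit, had 8.53, 7.99 and 7.18 FPKM in medium and 9.73, 9.70 and 10.6 FPKM with CpdA, a log2 change of 0.34 ± 0.09 (SE, adjusted p = 0.0045). Without it, 32 of 43 tested genes were higher.

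Of 12 tested genes for assembly and associated factors outside the name pattern, 6 were higher, 0 were lower and 6 were not called. Over all tested genes, 16.5% were higher and 16.7% lower, so that the share higher in this list was above that background. The 2 genes of this list with the smallest p code for proteins that dock on the cap. Uchl5, a deubiquitinase, had 48.8, 50.7 and 49.4 FPKM in medium and 63.4, 59.7 and 62.0 FPKM with CpdA, a log2 change of 0.30 ± 0.04 (SE, adjusted p = 3.1e-08). Adrm1, the ubiquitin receptor that recruits it, had 20.8, 22.7 and 20.6 FPKM in medium and 26.2, 24.7 and 26.2 FPKM with CpdA, a change of 0.25 (adjusted p = 3.8e-06). Neither pair of groups overlapped. Usp14, another deubiquitinase of the cap, Psmg2 and Psmg3, chaperones of the core, and the ligase gene Ube3c also rose, by 0.20, 0.22, 0.34 and 0.17. Psmg3 missed the threshold with DESeq2 (adjusted p = 0.0652), without medium replicate 3 (0.110) and without CpdA replicate 3 (0.0786), and Ube3c without CpdA replicate 3 (0.107). Pomp, the maturation factor of the core, had 215, 226 and 222 FPKM in medium and 226, 225 and 219 FPKM with CpdA, overlapping ranges with a change of 0.01 (adjusted p = 0.925). The lid gene Shfm1, which the pattern does not take, had a change of 0.01 (adjusted p = 0.892). Paaf1 was not analysed here.

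Of the 9 genes for ubiquitin shuttles and the p97 unfoldase, 6 were higher (66.7%) and 0 lower, beside 16.5% and 16.7% of all tested genes. Vcp, the p97 gene, had 112, 117 and 114 FPKM in medium and 130.1, 128 and 129.6 FPKM with CpdA, a log2 change of 0.17 ± 0.03 (SE, adjusted p = 7.2e-06). Ubqln4, a shuttle, rose by 0.24 (adjusted p = 4.4e-05), with 17.1, 17.8 and 18.5 FPKM in medium and 22.3, 20.4 and 21.1 FPKM with CpdA. Neither gene had overlapping groups. Without CpdA replicate 3, 3 of these 9 genes were called: the calls of Rad23b (adjusted p = 0.0633), Ubqln2 (0.0740) and Nploc4 (0.0749) were lost. Nploc4 was also lost with DESeq2 and without medium replicate 1, medium replicate 3 or CpdA replicate 1 (adjusted p from 0.0502 to 0.142), and Rad23b without CpdA replicate 1 (0.0724). Ubqln1 passed without CpdA replicate 2 (0.0421). Of 5 ubiquitin and E1 genes, 1 was higher and 0 lower, a share (20.0%) near the 16.5% of all tested genes. Ubb, a polyubiquitin gene, was called with a change of 0.07 (adjusted p = 0.0376). It missed the threshold with the stricter count filter (adjusted p = 0.0637), without medium replicate 1 (0.0953), medium replicate 3 (0.142), CpdA replicate 1 (0.143) or CpdA replicate 2 (0.0618). Rps27a, which was not called, passed without medium replicate 3 (adjusted p = 0.0189). Uba1, the main E1 enzyme, had a change of -0.005 (adjusted p = 0.914).

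Of 8 genes known to control proteasome transcription, 3 were higher and 1 was lower, beside 16.5% higher and 16.7% lower of all tested genes, so that the share lower was near that background. Nfe2l1, which codes for the factor that raises subunit transcription when proteasome activity falls, had 29.3, 31.3 and 31.3 FPKM in medium and 33.8, 35.4 and 35.0 FPKM with CpdA. Its log2 change was 0.17 ± 0.03 (SE, adjusted p = 0.00014), with no overlap. Nfe2l2, its relative in the oxidative stress response, had 12.2, 12.3 and 13.1 FPKM in medium and 15.6, 13.05 and 14.7 FPKM with CpdA, a change of 0.19 (adjusted p = 0.0135) with overlapping groups. The Nfe2l2 call was lost without CpdA replicate 1 (adjusted p = 0.121) and without CpdA replicate 3 (0.0566). Mafk, a small partner of both factors, rose by 0.29 (adjusted p = 0.00011), with 9.54, 11.4 and 11.1 FPKM in medium and 13.27, 13.002 and 13.4 FPKM with CpdA. Bach1, a repressor at the same elements, had 3.96, 3.66 and 3.69 FPKM in medium and 2.83, 2.80 and 2.81 FPKM with CpdA, a log2 change of -0.43 ± 0.07 (SE, adjusted p = 8.2e-06). Ddi2, the protease that activates the Nfe2l1 product, had a change of -0.10 (adjusted p = 0.0929). It passed without CpdA replicate 2 (adjusted p = 0.0383), as Mafg did without medium replicate 3 (0.0293) and Keap1 with the stricter count filter (0.0467), all with negative changes.

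Of 8 interferon and peptide loading genes that work with the immunoproteasome, 6 were higher (75.0%) and 1 lower. Over all tested genes 16.5% were higher and 16.7% lower, so that the share lower was not above that background. Nlrc5, the transactivator of MHC class I genes, had 13.2, 13.2 and 12.7 FPKM in medium and 16.9, 16.8 and 16.7 FPKM with CpdA, a log2 change of 0.35 ± 0.04 (SE, adjusted p = 6.4e-10). Tapbp, which codes for the peptide loading factor tapasin, had 35.3, 39.8 and 36.7 FPKM in medium and 49.2, 45.7 and 48.3 FPKM with CpdA, a change of 0.34 (adjusted p = 5.2e-09). In both genes the groups were well apart. Irf1, an interferon-induced factor known to act on immunoproteasome genes, rose by 0.18 (adjusted p = 0.00034), with 41.5, 40.8 and 40.5 FPKM in medium and 48.5, 45.9 and 45.8 FPKM with CpdA. Irf8, another factor of this family, had 119.7, 111 and 114 FPKM in medium and 81.5, 84.2 and 80.8 FPKM with CpdA, a log2 change of -0.50 ± 0.03 (SE, adjusted p = 2.5e-16). Tap1, a peptide transporter whose gene adjoins Psmb9, had 80.6, 84.7 and 81.5 FPKM in medium and 80.7, 79.4 and 81.8 FPKM with CpdA. Tap1 and Psmb9 were thus both without a call, Tap1 with a log2 change of -0.04 (adjusted p = 0.350). Tap2 was called (0.13, adjusted p = 0.0119) but missed the threshold without medium replicate 1 (0.0629) and without CpdA replicate 1 (0.0831).

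**Figure D5:**
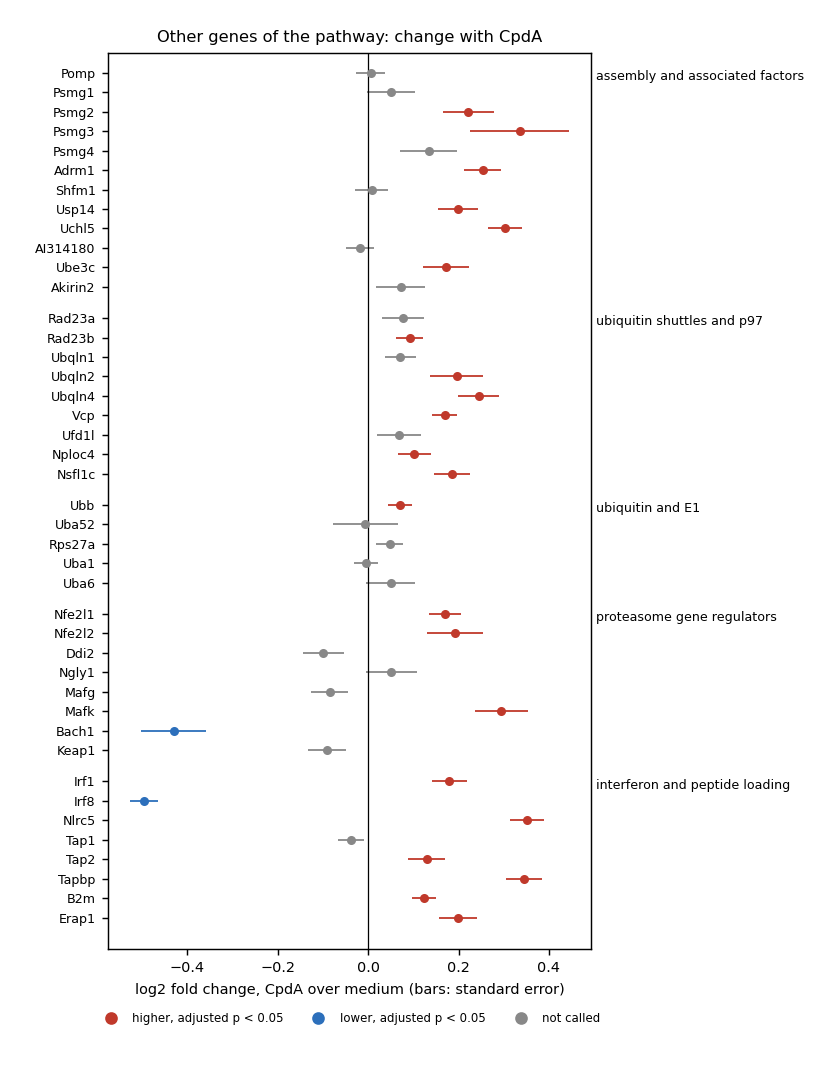
Log2 fold change of CpdA over medium (horizontal axis) for the tested genes of the other lists; points are edgeR estimates, bars are standard errors, red marks genes called higher and blue genes called lower. Only Bach1 and Irf8 are blue, and Nlrc5, Tapbp, Psmg3 and Uchl5 lie farthest to the right.

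Because most members moved together, the bases before their starts were searched for elements of the known regulators. RefSeq promoters (GRCm38.p6) were matched by symbol for 39 of the 46 genes; Psma8, Psmb1, Psmb2, Psmb7, Psmc3, Psmd3 and Psmd7 had no entry. In the 250 bases before the start, on both strands, the core of the antioxidant response element, TGACNNNGC, which Nfe2l1 and Nfe2l2 bind, was present in 5 of 39 members (12.8%). The share was close to that of other genes: 14.3% over 9503 tested genes and 11.5% over 27025 genes with an entry. It was present in 3 of 28 members called higher and in 2 of 10 not called. The members were Psmb5, Psmb6 and Psmd12, which were higher, and Psmc6 and Psmd9, which were not called. An interferon response element, GAAA followed by any 2 bases and GAAA, was present in 3 of 39 members (7.7%; 3.2% of tested genes): Psmb3, Psmd4 and Psmd9. The CCAAT box, CCAAT, was present in 15 of 39 members (38.5%; 40.4% of tested genes). A match is a description of these letters and not evidence of binding.

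The stretches of 60 bases that hold the matches in members called higher are shown with that of Psmc6, which was not called, so that the elements can be compared; capitals mark the match, and each runs 5′ to 3′ on the strand of its gene. They lie at chr14:54618009-54618068 on the minus strand for Psmb5, at chr11:70525297-70525356 on the plus strand for Psmb6, at chr11:107479278-107479337 on the plus strand for Psmd12 and at chr14:45329574-45329633 on the plus strand for Psmc6. Those with an interferon element lie at chr11:97703246-97703305 on the plus strand for Psmb3 and at chr3:95042660-95042719 on the minus strand for Psmd4.
Psmb5: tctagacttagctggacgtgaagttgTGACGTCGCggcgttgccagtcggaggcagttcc
Psmb6: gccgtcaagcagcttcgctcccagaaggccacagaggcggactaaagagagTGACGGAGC
Psmd12: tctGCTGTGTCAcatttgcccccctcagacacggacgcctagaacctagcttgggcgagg
Psmc6: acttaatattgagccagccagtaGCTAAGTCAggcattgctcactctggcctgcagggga
Psmb3: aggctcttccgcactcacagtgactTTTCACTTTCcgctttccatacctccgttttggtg
Psmd4: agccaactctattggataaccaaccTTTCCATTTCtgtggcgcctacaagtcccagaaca
In Psmb5 and Psmb6 the element reads forward and ends 38 and 0 bases before the start in the RefSeq entry, which can differ from the gene start in the deposited table. In GENCODE M21, 14 bases of the Psmb5 stretch lie in an annotated exon of that gene. In Psmd12 and Psmc6 it reads on the opposite strand and lies 238 and 218 bases before that RefSeq start. The log2 changes of these 4 genes were 0.16, 0.19, 0.22 and 0.07.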

How the data were processed

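RNA-seq libraries of 3 medium and 3 CpdA samples were grouped from the labels. Per the file headers, the authors deposited whole-number counts for each gene and library beside FPKM values; dividing each count by gene length and library total gave these FPKM back to within 1.86e-07 of their value. CASAVA 1.8 and the genome GRCm38 (mm10) are named in the submitters' processing notes. Aligner, counter and strand setting: not given in the sources used here.

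All tests were run on counts over all genes in R 4.3.3 with edgeR 4.0.16 (TMM scaling, robust quasi-likelihood test, no covariates, filterByExpr with a minimum count of 10 and a minimum total of 15), with Benjamini-Hochberg adjustment and a threshold of 0.05. Standard errors are the log2 fold change divided by the root of the F statistic. Levels are the authors' FPKM, with SD over 3 libraries. Ratios of 2 genes were compared with an exact permutation test. Alternatives were DESeq2 1.42.0, limma-voom (limma 3.58.1), other scalings and filters, a replicate block and leaving out each library. In simulated counts for CpdA against medium (13352 genes tested), 63.3% of the genes set to 1.25-fold and 76% of those set to 1.5-fold passed, as did 13 of 13158 genes left alone. These shares do not give the power for the members. The simulation changed 98 and 96 tested genes, whereas 4483 were called in the data, so its adjusted threshold was stricter. Both folds also exceed every called change of a subunit (24.4% at most).

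Genes given with full values were a fixed set of 16 and, in each role group, the 3 called genes with the smallest p; lists of other pathway genes gave the 2 with the smallest p in each direction and 6 fixed genes. Others named were taken because a single library changed their call or a list was counted. Some genes of these lists are not reported here. The members and lists were chosen with earlier results of these data known. The level of at least 50 CPM was chosen after seeing the data.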

Additional observations from a re-analysis of the deposited data

How the results depend on the processing

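No ratio and no called fold change reversed its direction under the settings tried. Of the values compared, 1429 were labelled unchanged, 54 calls were lost, 6 were gained and 21 values moved. A fold change was labelled unchanged if its call stayed the same, even if an uncalled change switched sign. A count was labelled unchanged if it shifted little, as from 33 to 27, and a ratio if it kept its direction. The members called higher were 33 in the result as reported, 33 with library size alone, DESeq2 size factors, limma-voom or no count filter, 31 with DESeq2, 32 with a filter at 5 CPM and 27 to 32 without 1 library; 0 were lower throughout. With 1 library left out, the called genes were 1 to 2 for the immunoproteasome, 1 to 3 for the base, 0 to 1 for the 19S assembly factors, 3 to 7 for shuttles and p97, 0 to 1 for ubiquitin and E1 and, lower, 1 to 2 for regulators. DESeq2 called 0 assembly factors of the 19S cap. The stricter filter, which tested fewer genes, called 0 genes of ubiquitin and E1 and 2 regulators lower. Otherwise the cause was not tested. Deviations of same-numbered libraries of the groups correlated at -0.021, -0.015 and -0.001, and the highest correlation (0.023) joined different numbers. Whether same-numbered libraries were paired is not stated, and these correlations, with 3 libraries per group, cannot settle it. With a replicate block 29 members were higher; the base and the immunoproteasome each had 1 called gene, shuttles and p97 had 4, and ubiquitin and E1 had 0. With the block, the log2 ratio differences stayed at -0.07, -0.12 and 0.09. The whole promoter window gave 6, 4 and 15 members with the 3 motifs. Depth left Psma8 and Psmb11 untested, and low-count members such as Psme2b (SE 0.10), Psmd9 and Psmd10 (SE 0.06 each) could not show changes as small as those called in well-measured genes.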
